A study of Rattus norvegicus with 6 samples.

Results

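The genes Slc5a1, Slc2a2, Slc2a5, Slc15a1, Si, Lct, Anpep, Dpp4 and Enpep encode brush border enzymes and carriers that finish the digestion of sugars and peptides. They were chosen by name, and they are 9 of the 28282 gene symbols in the count tables. Single-nucleus RNA libraries of the ileum were made from 6 rats, 3 in the CON group and 3 in the SAP group (severe acute pancreatitis), with 1 library per rat. All rats were wild type male Sprague-Dawley animals, an outbred stock, 6 weeks old when obtained and acclimatized before surgery. SAP rats received a retrograde infusion of 3% sodium taurocholate into the biliopancreatic duct at 0.1 mL per 100 g, with the duct clamped for 5 min, and CON rats had a laparotomy without infusion. All groups were then kept without food but with water, and the ileum was taken at 24 h, opened and rinsed, away from Peyer's patches. The rats are separate animals, so the spread within a group includes differences between animals.

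The last steps of digestion take place on the microvilli of absorptive enterocytes. Sucrase-isomaltase (Si) and lactase (Lct) split disaccharides into monosaccharides, and aminopeptidase N (Anpep), dipeptidyl peptidase 4 (Dpp4) and glutamyl aminopeptidase (Enpep) trim peptides. SGLT1 (Slc5a1) takes up glucose and galactose with sodium, GLUT5 (Slc2a5) takes up fructose, and GLUT2 (Slc2a2) releases hexoses across the basal membrane. PEPT1 (Slc15a1) takes up dipeptides and tripeptides with protons. These genes are switched on as cells leave the crypt, and factors of the HNF1, CDX and GATA families are known to bind promoters of several of them.

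The promoters of 4 of the genes are shown because their levels gave the largest differences between the groups. Slc2a2, Lct and Si had the largest positive fold changes over all nuclei, and Enpep had the most negative one in a cluster of enterocyte-like nuclei. Each runs 5′ to 3′ from 250 bases before to 50 bases after the RefSeq start on the coding strand (build GRCr8), and capitals mark matches on either strand to the HNF1 half-site GTTAAT, the CDX core TTTATG and the GATA core AGATAA. The windows are chr2:113540120-113540419 on the plus strand for Slc2a2, and chr2:159884853-159885152 for Si, chr13:42376823-42377122 for Lct and chr2:220526169-220526468 for Enpep on the minus strand.
Slc2a2: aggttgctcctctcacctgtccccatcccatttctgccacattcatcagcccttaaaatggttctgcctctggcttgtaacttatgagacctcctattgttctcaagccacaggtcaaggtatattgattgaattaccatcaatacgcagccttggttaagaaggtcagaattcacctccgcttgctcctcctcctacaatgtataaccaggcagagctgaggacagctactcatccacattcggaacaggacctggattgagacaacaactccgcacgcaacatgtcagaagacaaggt
Si: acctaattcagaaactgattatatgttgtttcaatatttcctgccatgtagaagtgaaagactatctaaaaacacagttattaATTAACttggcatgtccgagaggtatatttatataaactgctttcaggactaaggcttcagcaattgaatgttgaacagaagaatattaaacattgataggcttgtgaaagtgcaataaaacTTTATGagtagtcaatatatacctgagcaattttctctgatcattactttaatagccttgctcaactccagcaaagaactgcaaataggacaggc
Lct: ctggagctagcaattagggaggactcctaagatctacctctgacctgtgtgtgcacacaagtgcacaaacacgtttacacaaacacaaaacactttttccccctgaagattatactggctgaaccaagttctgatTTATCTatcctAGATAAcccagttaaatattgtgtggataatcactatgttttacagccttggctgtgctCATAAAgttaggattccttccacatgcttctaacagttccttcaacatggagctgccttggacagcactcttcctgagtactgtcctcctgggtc
Enpep: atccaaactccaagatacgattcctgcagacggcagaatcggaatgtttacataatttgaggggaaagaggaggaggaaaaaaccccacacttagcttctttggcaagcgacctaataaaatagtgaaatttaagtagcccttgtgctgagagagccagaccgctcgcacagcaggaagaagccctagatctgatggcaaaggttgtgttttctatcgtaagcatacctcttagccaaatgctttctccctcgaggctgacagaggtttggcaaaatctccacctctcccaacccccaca
All 9 genes had 1 promoter each in the RefSeq table. The HNF1 half-site was found in 2 of them (Si and Anpep) and in 7.45% of the 33469 promoters, the CDX core in 2 (Si and Lct) and in 12.7%, and the GATA core in 2 (Lct and Slc15a1) and in 11.6%. In both Si and Lct the CDX core lay at bases -45 to -40 from the start, on opposite strands. A match is a string of letters and not a measured binding site.

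Quality control left 40970 of 90461 barcodes, 3189 to 9246 per library, with 5549260 to 28771508 UMIs (unique molecular identifiers, each counted once as 1 captured transcript). The tables of CON replicate 2 and SAP replicate 1 also list barcodes under 1000 UMIs, and median mitochondrial UMIs were 0.125% to 0.700% in CON and 0.387% to 1.84% in SAP libraries. Of the barcode sequences of passing nuclei, 5398 (15.4% of the distinct ones) occurred in more than 1 library. Clustering without the 9 genes gave 23 clusters of at least 50 nuclei. Clusters 3 (3422 nuclei) and 12 (859 nuclei) were named enterocyte-like, with 9 of 9 enterocyte markers detected and mean log2 ratios of the markers of 2.28 and 1.45. Cluster 1 (6630 nuclei) had all 9 markers at a mean log2 ratio of 0.129 and stayed unnamed, although its closest named cluster was enterocyte-like. Cluster 3 was led by Ly6m and Apoa4. It carried the villus tip markers at 950.0 CPM (UMIs per 1000000 UMIs of the same library and class) summed over 6 genes in CON replicate 1. In the other 5 libraries it had 2758 to 4085 CPM, while cluster 1 had 209 to 748 and cluster 12 had 121 to 943 CPM. Cluster 3 also held 6 villus base markers, at 16709.7 to 137158 CPM. These stood at 11492 to 85891 CPM in cluster 1 and at 20218.9 to 285781 CPM in cluster 12, so they did not set cluster 3 apart. Cluster 12 was led by Fabp6, the ileal bile acid binding protein, and cluster 1 by Ceacam20, Si and Car4, although Si took no part in the clustering.

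Judged by the spread between libraries, the peptide carrier was the one of the 9 genes whose level stood apart in 1 absorptive cluster, cluster 3. Most others differed between the clusters by less than their spread. That spread is an SD over rats of both groups, although the clusters come from the same rats. Slc15a1 stood at 1091 ± 276 CPM in cluster 3 (SD, n = 6 libraries), against 326 ± 169 in cluster 1 and 345 ± 161 in cluster 12. Slc15a1 was higher in cluster 3 than in cluster 1 in each of the 6 libraries. This held for Anpep and for the sparse Lct too, so it did not single out Slc15a1. The lowest ratio of cluster 3 to cluster 1 was 1.299 for Anpep (SAP replicate 2) and 1.614 for Lct (CON replicate 2). Dpp4 was also higher in cluster 3 in every library except SAP replicate 3, where the ratio was 0.993. Anpep showed the same order of means as Slc15a1, with 1122 ± 572, 884 ± 490.4 and 509 ± 207 CPM in clusters 3, 12 and 1. Its levels in clusters 3 and 12 did not differ beyond their spread. Dpp4 had 532 ± 327 CPM in cluster 3, 451 ± 157 in cluster 12 and 351 ± 57.0 in cluster 1; these differences are smaller than the SD in cluster 3.

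Si had 600.0 ± 372 CPM in cluster 1, 589 ± 447 in cluster 12 and 366 ± 191 in cluster 3, within the spread of the libraries. Slc2a5 had 72.5 ± 36.7, 64.2 ± 32.0 and 53.9 ± 33.6 CPM in the same order, and these levels did not differ beyond their spread. By means over both groups Slc5a1 was nearly even, at 192 ± 92.1, 179 ± 86.7 and 215 ± 86.0 CPM in clusters 1, 12 and 3. Enpep was also even by these means, with 1817 ± 433, 1949.8 ± 693 and 1669.6 ± 1263 CPM. Within rats the ratio of cluster 3 to cluster 1 was 0.840 to 2.16 for Enpep in CON and 0.470 to 0.542 in SAP. For Slc5a1 it was 1.34 to 2.19 in CON and 0.795 to 1.02 in SAP. Slc2a2 and Lct were sparse. Slc2a2 had 42.2 ± 46.3 CPM in cluster 12, 26.4 ± 27.5 in cluster 1 and 12.6 ± 10.6 in cluster 3, and Lct had 43.7 ± 58.2 CPM in cluster 3, 28.7 ± 42.9 in cluster 12 and 11.8 ± 19.2 in cluster 1. These levels by cluster are descriptions without a test, and CPM values are compared within a gene because UMI counts are not scaled to gene length.

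**Figure D1:**
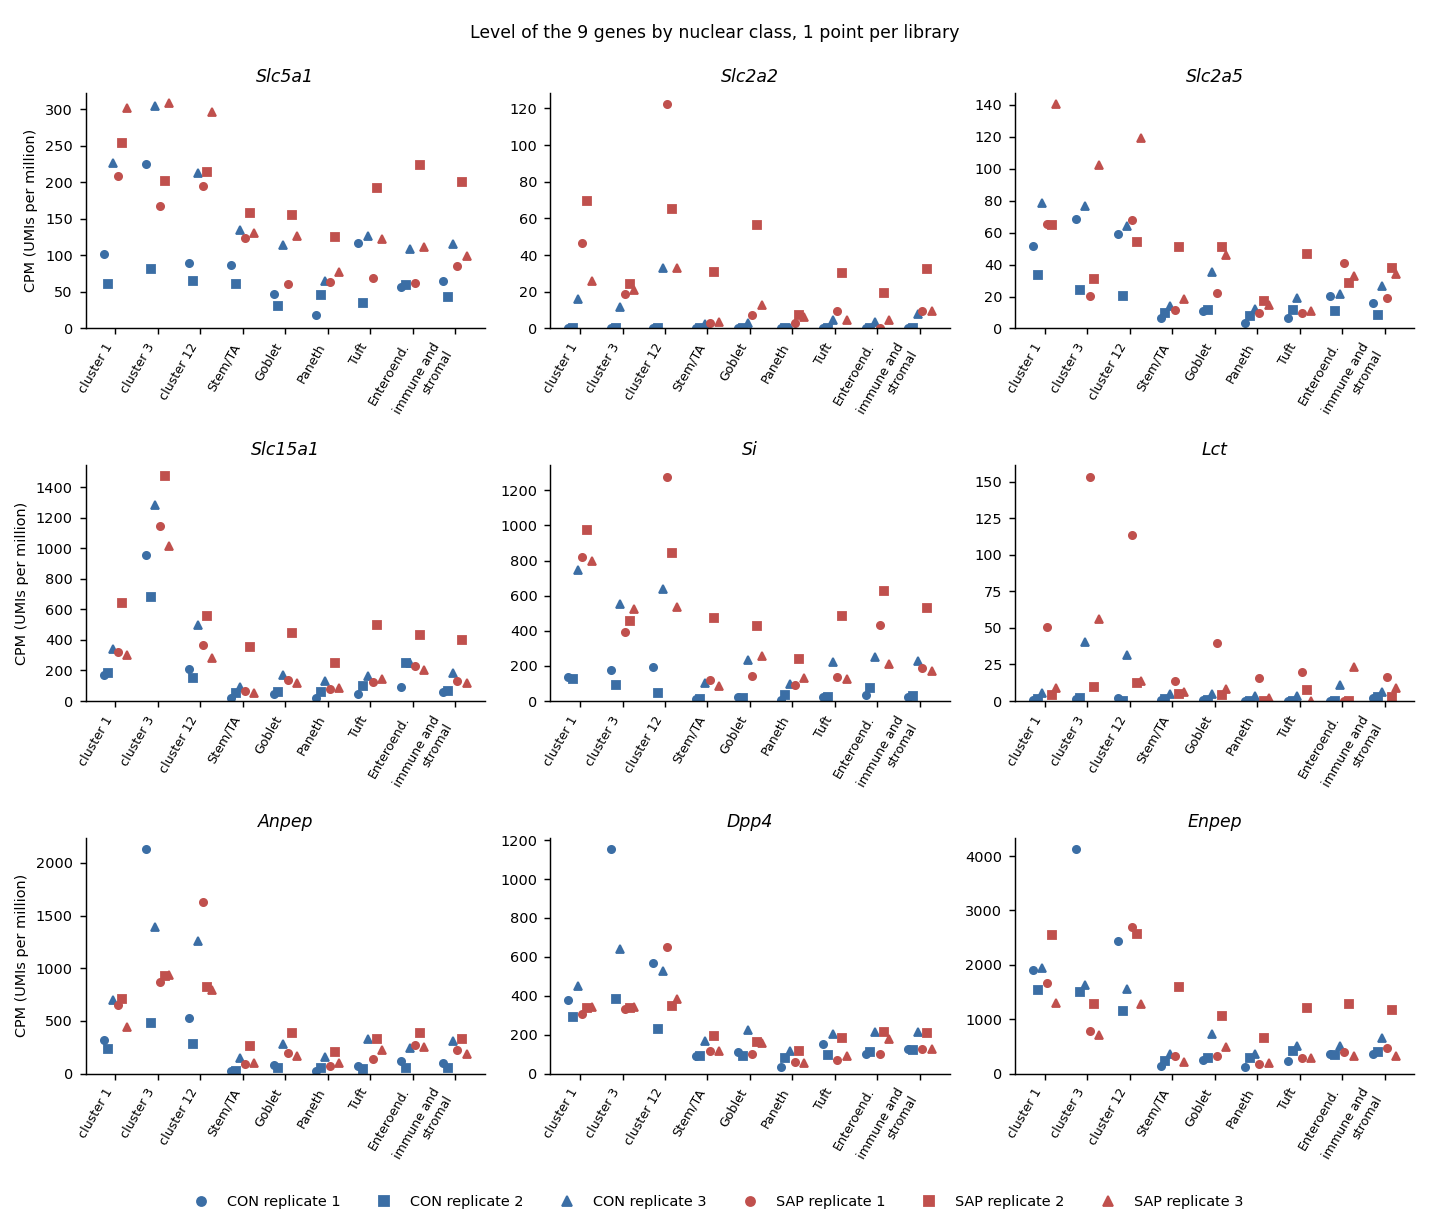
Level of each of the 9 genes (vertical axis, CPM, starting at 0 with its own scale in each panel) in absorptive clusters 1, 3 and 12, in 5 other epithelial classes and in immune and stromal nuclei, with 1 point per library. Slc15a1 lies at 679 to 1471 CPM in cluster 3 and at 57.1 to 400.5 in immune and stromal nuclei, and Enpep in cluster 3 spans 705 to 4132.

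UMIs of all 9 genes were also found outside the epithelium. Dpp4 (CD26), Anpep (CD13) and Enpep are also made by some immune and stromal cells, and whether such cells make the carriers and disaccharidases was not examined. How much of any gene's level there is background was not tested. Over 8956 nuclei of immune and stromal classes, the 9 genes summed to 749, 721 and 1744 CPM in CON replicates 1 to 3, and to 1259.8, 2901 and 1061 CPM in SAP replicates 1 to 3. SAP replicate 2 was the highest library for 7 of the 9 genes in these nuclei, and it was also the highest for 6 of the 9 over all nuclei. In enterocyte-like nuclei the ratio to the immune and stromal level of the same library had a median over libraries of 7.27 for Slc15a1, 4.80 for Anpep and 4.55 for Lct. The median ratio was 2.87 for Si, 2.82 for Dpp4, 2.71 for Slc2a5, 2.67 for Enpep and 2.21 for Slc5a1, and for Slc2a2 it was 2.22 over the 5 libraries with a value. In SAP replicate 2, however, the ratio was 1.02 for Slc5a1, 1.04 for Slc2a2, 0.957 for Slc2a5 and 1.03 for Si, and for Lct it was 0.744 in CON replicate 1 and 0.456 in CON replicate 2. The levels of these genes in enterocyte-like nuclei of these libraries were therefore not separated from the level elsewhere in the tissue. Enterocyte-like and unnamed absorptive nuclei, 26.6% of all nuclei, held between 41.7% (Slc5a1) and 64.0% (Anpep) of each gene's UMIs.

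Over pooled libraries the share of nuclei with at least 1 UMI was higher in enterocyte-like nuclei for each gene. It was higher within each of the 6 libraries for Slc15a1, Anpep and Dpp4. For Slc5a1, Slc2a5, Si and Enpep it was higher in 5, with SAP replicate 2 the exception (Si in 55.2% of enterocyte-like against 64.5% of immune and stromal nuclei there), for Lct in 4 and for Slc2a2 in 3. SAP replicate 2 supplied 1408 of the 4281 enterocyte-like and 622 of the 8956 immune and stromal nuclei, so the pooled shares weigh it unequally. In that library these nuclei held 3505343 and 2726865 UMIs, so its immune and stromal nuclei were the deeper ones on average. Slc15a1 was detected in 75.0% of 4281 enterocyte-like nuclei (95% Wilson interval 73.7 to 76.3) and in 22.3% of immune and stromal nuclei (21.4 to 23.2), with medians of 2002 and 1839 UMIs per nucleus. With each nucleus thinned to 1200 UMIs the shares were 60.3% and 13.5%. After thinning, Enpep was detected in 66.4% against 35.5%, Anpep in 55.4% against 18.1%, Dpp4 in 36.1% against 15.5%, and Si in 29.2% against 14.5%. Slc5a1 had 20.3% against 10.2%, Slc2a5 5.50% against 2.78%, Lct 3.07% against 0.705% and Slc2a2 2.04% against 0.944%. Within libraries the thinned share was higher in all 6 for Slc5a1, Slc2a5 and Enpep, in 5 for Si and Lct and in 3 for Slc2a2. In SAP replicate 2 the thinned shares were 38.5% and 38.9% for Si, 20.8% and 20.6% for Slc5a1, and 3.22% and 3.57% for Slc2a2. Intervals cover counting error only. In Stem/TA-like nuclei the level of Slc15a1, Si, Anpep and Dpp4 was below the immune and stromal level in all 6 libraries, so their UMIs there did not exceed that level. Slc5a1 was the exception in this class, with a level above that of immune and stromal nuclei in 5 of 6 libraries, by a median ratio of 1.32.

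Whether pancreatitis changed the tissue content of these transcripts was addressed over all nuclei, where a change in the share of enterocytes and a change in the level per enterocyte, in either direction, cannot be told apart. Si had 42.6, 42.8 and 298 CPM in CON replicates 1 to 3 and 371, 619 and 274 CPM in SAP replicates 1 to 3. CON replicate 3 lay among the SAP libraries, so the groups overlapped. Slc15a1 had 105, 115 and 272 CPM in CON and 301, 651 and 199.9 CPM in SAP libraries, which overlapped in the same way. Slc5a1 had 72.3, 55.7 and 149 CPM in CON and 131, 203 and 151 CPM in SAP, and Slc2a5 had 18.0, 14.3 and 36.2 against 29.7, 45.9 and 52.5 CPM.

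Slc2a2 was the only 1 of the 9 genes whose groups did not overlap over all nuclei. It had 3, 2 and 150 UMIs in CON, or 0.104, 0.175 and 7.60 CPM, and 117, 626 and 230 UMIs in SAP, or 21.1, 40.4 and 11.8 CPM. Across all genes 4.53% did not overlap with SAP higher. Slc2a2 was likewise without overlap in immune and stromal nuclei, with 0.165, 0 and 8.16 CPM in CON and 9.53, 32.6 and 9.52 CPM in SAP. Lct had 0.973, 1.40 and 9.63 CPM in CON and 49.7, 5.29 and 12.2 CPM in SAP, with SAP replicate 1 far above the rest. Within same-numbered pairs of libraries, Slc5a1, Slc2a2, Slc2a5 and Lct were higher in SAP in 3 of 3 pairs, 4 of the 9 genes beside 20.6% of all genes. The labels do not explain this pairing. SAP replicate 1 was the highest for Lct in each of clusters 1, 3 and 12 as well.

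The peptidases overlapped throughout. Anpep had 212, 99.6 and 422 CPM in CON and 416, 540.1 and 267 CPM in SAP. Dpp4 had 193, 145 and 271 against 206, 262 and 171 CPM, and Enpep had 666, 572 and 838 against 789.7, 1602 and 471 CPM. For both, SAP replicate 3 was the lowest SAP library, and for Enpep the lowest of all 6.

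**Figure D2:**
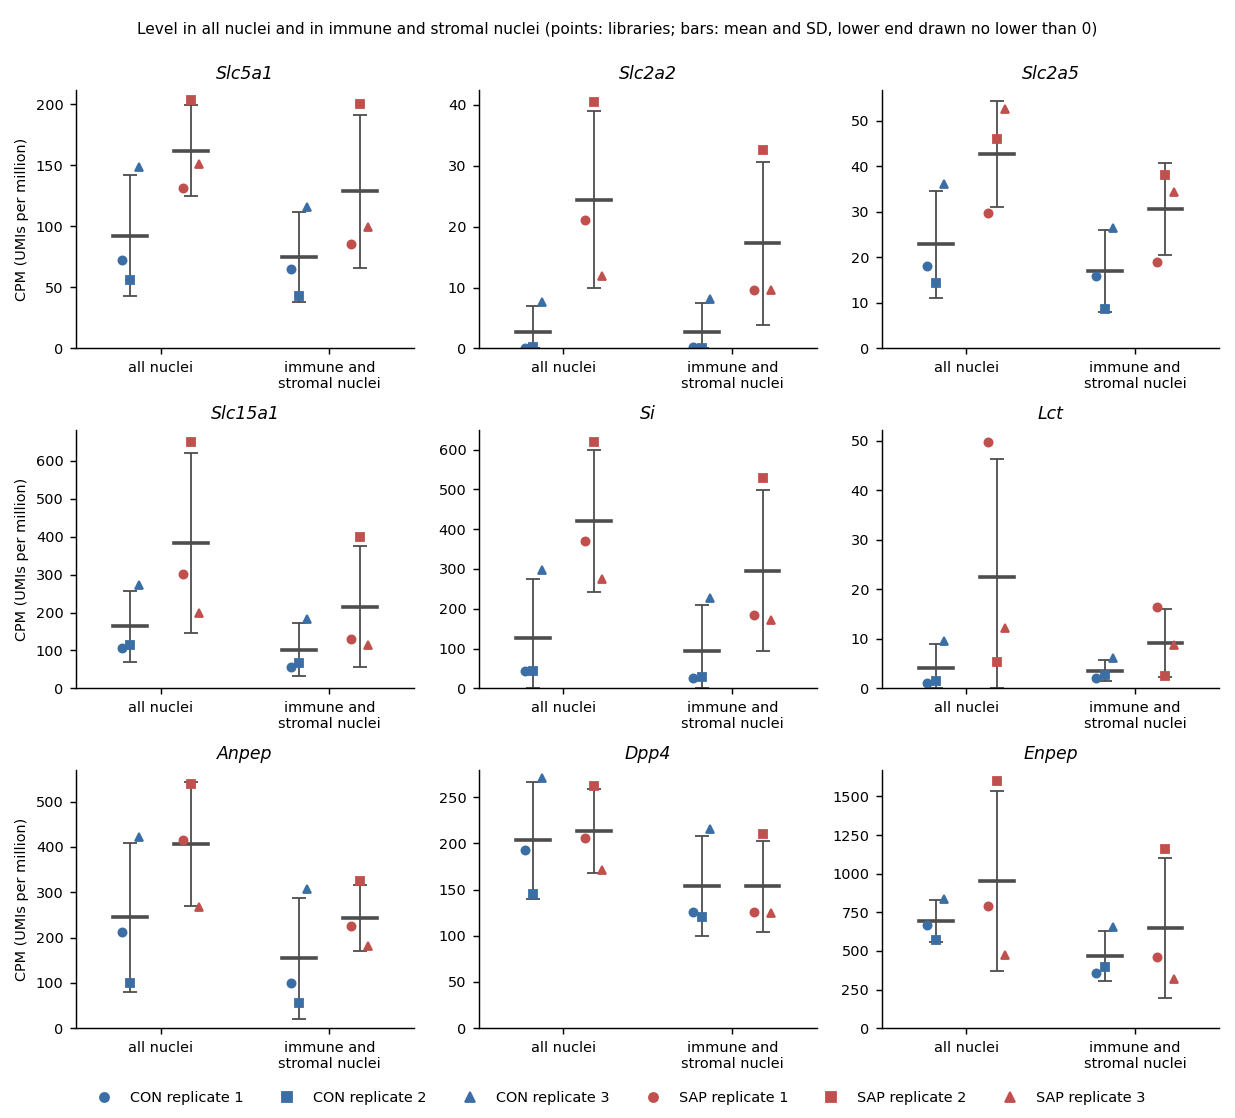
Level of each gene (vertical axis, CPM) over all nuclei and over immune and stromal nuclei, in 3 CON and 3 SAP libraries, with points for libraries, a horizontal line for the mean and a bar for the SD. The library order is alike on both sides of most panels, with SAP replicate 2 highest in 6 panels over all nuclei and in 7 over immune and stromal nuclei.

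All 9 log2 fold changes (SAP over CON, edgeR) over all nuclei were positive, as were 52.2% of the 19187 genes tested, and their median was 0.92 beside 0.02 for all genes. They were 3.54 ± 1.28 (SE) for Slc2a2, 2.77 ± 1.05 for Lct, 1.97 ± 0.72 for Si and 1.38 ± 0.53 for Slc15a1. The value was 0.92 ± 0.33 for Slc2a5, 0.88 ± 0.36 for Slc5a1, 0.85 ± 0.53 for Anpep, 0.54 ± 0.52 for Enpep and 0.12 ± 0.35 for Dpp4. None of the 9 passed the threshold (adjusted p under 0.05 and a log2 fold change of at least 0.5 in size), with adjusted p in edgeR of 0.552 for Slc2a2 to 0.960 for Dpp4. No gene of the table passed, so the background is 0%, and DESeq2 called 1.12% of all genes and 0 of the 9. At an unadjusted p under 0.05 with SAP higher there were 6 of the 9 (Slc2a2, Lct, Si, Slc15a1, Slc2a5 and Slc5a1) in edgeR, beside 3.97% of all genes. Without CON replicate 3 the log2 fold change was 3.20 for Si and 4.21 for Lct, and without SAP replicate 1 that of Lct was 1.14. Within the pair of libraries that list barcodes under 1000 UMIs the log2 ratio of Si was 3.09, and in the other 4 it was 1.39. For Anpep these ratios were 2.05 and 0.35, for Lct 4.40 and 0.63, and for Dpp4 0.50 and -0.10.

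Over the 30737 epithelial nuclei the 9 values were again all positive, from 0.07 ± 0.34 for Dpp4 to 3.60 ± 1.31 for Slc2a2, where 49.9% of 16861 genes were positive. None of the 9 was called in edgeR (0% of all genes) or DESeq2 (1.79%), and 6 had an unadjusted p under 0.05 in edgeR with SAP higher, beside 5.25% of all genes.

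Enterocyte-like nuclei made up 6.88%, 6.69% and 7.92% of nuclei in CON replicates 1 to 3 and 15.7%, 23.6% and 8.25% in SAP replicates 1 to 3. The means were 7.16% ± 0.659 and 15.9% ± 7.67 (SD, n = 3), the groups did not overlap, and the exact two-sided permutation test gave p = 0.1, the smallest that 3 against 3 rats allow. With at most 1% mitochondrial UMIs the groups overlapped (exact permutation p = 0.3), as they did at a resolution of 1.2 (p = 0.3), without integration (p = 0.6) and with cluster 1 included (p = 0.3). The mitochondrial limit left 384 of 3189 nuclei in SAP replicate 1, 30 of them enterocyte-like, and 6176 of 6260 in CON replicate 2. SAP replicate 2, the library with the highest share, was also the highest over all nuclei for 6 of the 9 genes, and the part of this share in those differences was not tested.

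Within enterocyte-like nuclei the carriers and sugar enzymes kept positive values and the peptidases had negative ones, all short of the threshold, and 6 of 9 were positive beside 48.1% of all genes. Si had 183, 76.4 and 581 CPM in CON and 598, 546 and 526 CPM in SAP libraries, with a log2 fold change of 1.06 ± 0.64. Lct had 1.48, 1.21 and 37.6 CPM in CON and 144, 9.98 and 45.3 CPM in SAP libraries, with a log2 fold change of 2.42 ± 1.23. Slc2a2 had no UMI in CON replicates 1 and 2, where 3 counts would be 1.11 and 3.64 CPM, and 18.1 CPM in CON replicate 3. In SAP libraries it had 42.5, 33.9 and 23.9 CPM, so the groups did not overlap (3.00% of all genes with SAP higher), and the log2 fold change was 2.48 ± 1.08. With the immune and stromal level of each library subtracted, Slc2a2 stood at -0.165, 0 and 9.93 CPM in CON and 33.0, 1.31 and 14.4 CPM in SAP libraries, and the groups overlapped.

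Among the other carriers in these nuclei, Slc15a1 had 649, 520.4 and 1042 CPM in CON and 966, 1260.1 and 825 CPM in SAP libraries, with a log2 fold change of 0.51 ± 0.42. Slc5a1 had 169, 76.4 and 276 CPM against 174, 205 and 305 CPM, a log2 fold change of 0.37 ± 0.48. Slc2a5 had 64.6, 23.0 and 72.8 against 31.1, 36.5 and 107 CPM, a log2 fold change of 0.02 ± 0.58. All 3 overlapped between the groups.

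The peptidases went the other way by value. Anpep had 1471, 422 and 1349 CPM in CON and 1043, 898 and 899 CPM in SAP libraries, with a log2 fold change of -0.24 ± 0.57. Dpp4 had 913, 337 and 605 CPM against 405, 341 and 353 CPM, a log2 fold change of -0.82 ± 0.51. Enpep had 3436, 1395 and 1602 CPM against 1217, 1578 and 856 CPM, a log2 fold change of -0.90 ± 0.60. In all 3 genes CON replicate 1 was the highest library and the groups overlapped. Without CON replicate 1 the log2 fold changes were 0.34 for Anpep, -0.09 for Dpp4 and 0.0045 for Enpep. With the immune and stromal level subtracted, Enpep stood at 3079, 999 and 949 CPM in CON and 754, 415 and 539 CPM in SAP libraries. It was then without overlap, while Anpep and Dpp4 still overlapped. The share of all genes without overlap after subtraction is not given.

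In enterocyte-like nuclei none of the 9 was called in edgeR (adjusted p 0.707 for Slc2a2 to 0.994 for Slc2a5), as was no gene of 11465 (0%). DESeq2 called 0.122% of all genes and 0 of the 9, and 1 of the 9 (Slc2a2) had an unadjusted p under 0.05 in edgeR, beside 6.81% of all genes.

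The clusters within the absorptive nuclei were then taken one by one. In cluster 1, Si had 137, 123 and 745 CPM in CON and 820.1, 975 and 799 CPM in SAP. Si and Slc2a2 were the 2 genes of the 9 without overlap there, with SAP higher, beside 5.84% of all genes. With the immune and stromal level subtracted Slc2a2 stayed without overlap, as Slc15a1 and Lct then were. For Lct this rested on -0.41 CPM in CON replicate 3 against 0.159 CPM in SAP replicate 3. Both values are smaller in size than the CPM of 3 counts in those libraries, so the groups are not separated beyond that level. Si overlapped after subtraction, at 111, 94.7 and 518 CPM in CON and 635, 446 and 627 CPM in SAP libraries. The share of all genes without overlap after subtraction is not given. Slc5a1 had 103, 60.6 and 226 CPM in CON and 208, 254 and 301 CPM in SAP. Slc15a1 had 173, 182 and 341 CPM in CON and 323, 639 and 299.7 CPM in SAP, with CON replicate 3 inside the SAP range. Of the peptidases, Anpep had 318, 232 and 699 CPM against 650.2, 709.6 and 446 CPM, and Dpp4 had 376, 290.1 and 449 CPM against 306, 339 and 344 CPM. Enpep had 1911, 1537 and 1938 CPM in CON and 1659, 2554 and 1301 CPM in SAP. All 3 peptidases overlapped in this cluster.

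In cluster 1 the log2 fold change was 3.25 ± 1.24 for Slc2a2, 3.17 ± 1.19 for Lct, 1.50 ± 0.68 for Si and 1.04 ± 0.42 for Slc5a1, and 8 of 9 values were positive, beside 51.8% of all genes. At an unadjusted p under 0.05 with SAP higher there were 4 of the 9 (Slc2a2, Lct, Slc15a1 and Slc5a1), beside 6.43% of all genes. The edgeR fit called none of the 9 (0.00844% of all genes). DESeq2 called Lct (adjusted p = 0.0431, with 1, 2 and 14 UMIs in CON and 55, 14 and 17 in SAP) and 1.83% of all genes. Without SAP replicate 1 the edgeR value of Lct was 1.43. CON replicate 3 was the CON library with the highest Si in cluster 1. Without it edgeR called Si there, at a log2 fold change of 2.75 and an adjusted p of 0.0271. The share of all genes called in that fit is not given.

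In cluster 3, Dpp4 had 1155, 384 and 639.9 CPM in CON and 332, 339 and 342 CPM in SAP. Enpep had 4132, 1496 and 1627 CPM in CON and 779, 1278 and 705 CPM in SAP. Both were lower in every SAP library than in every CON library, as were 10.2% of all genes. Anpep had 2131, 483 and 1391 CPM against 868, 922 and 937 CPM and overlapped. The carrier Slc15a1, highest in this cluster, had 954, 679 and 1287 CPM in CON and 1144, 1471 and 1014 CPM in SAP.

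The log2 fold changes in cluster 3 were -1.35 ± 0.58 for Enpep, -1.06 ± 0.49 for Dpp4 and -0.52 ± 0.58 for Anpep, against 0.85 ± 0.59 for Si and 0.44 ± 0.41 for Slc15a1, and 5 of 9 were positive beside 50.2% of all genes. None of the 9 was called in edgeR (adjusted p 0.505 for Slc2a2 to 0.959 for Slc2a5, with 0.00956% of all genes called) or DESeq2 (0.287% of all genes), and 2 (Enpep and Slc2a2) had an unadjusted p under 0.05 in edgeR, beside 9.45% of all genes. CON replicate 1, the library with the lowest villus tip marker sum in cluster 3, carried the highest Enpep, Dpp4 and Anpep. Without it the log2 fold change was -0.48 for Enpep, -0.34 for Dpp4 and 0.19 for Anpep. Cluster 3 of this library also held 137158 CPM of 6 villus base markers, among them the antimicrobial lectin genes Reg3b and Reg3g, against 16709.7 to 51505 CPM in the other libraries. CON replicate 1 had the highest sum of these markers in cluster 1 (85891 CPM) and cluster 12 (285781 CPM) as well. In those clusters it was the highest library for 0 of the 9 genes by CPM. CPM is a share of the class total, so a high marker sum lowers the CPM of all other genes. Levels with these markers left out of the total were not computed, so this ranking cannot be read apart from the marker sum. The part of the marker sums in the result was not tested. Within the pair of libraries that list barcodes under 1000 UMIs the log2 ratio was -0.94 for Enpep, -0.21 for Dpp4 and 0.84 for Anpep, and over the remaining 4 libraries the ratios were -1.54, -1.39 and -0.92.

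In cluster 12, the other enterocyte-like cluster, the peptidases did not have the negative values of cluster 3, except for a small one for Dpp4. Anpep had 527, 279.6 and 1255 CPM in CON and 1632, 819.9 and 790.5 CPM in SAP libraries, a log2 fold change of 0.63 ± 0.75. The value was 0.08 ± 0.86 for Enpep and -0.16 ± 0.67 for Dpp4, and it was positive for 7 of the 8 genes tested in cluster 12, beside 46.9% of all genes. None of the 8 was called in edgeR (0% of all genes, 1 of the 8, Slc2a2, at an unadjusted p under 0.05) or DESeq2 (0.0131% of all genes). The difference between clusters 3 and 12 was not tested.

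**Figure D3:**
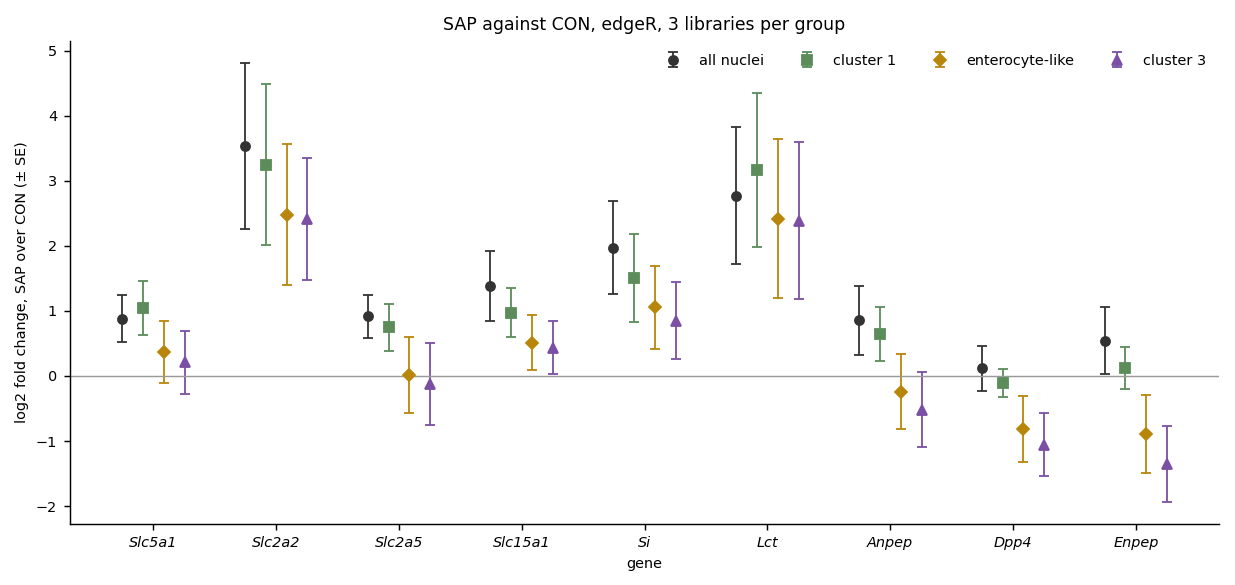
Log2 fold change, SAP over CON, of each gene with its standard error (vertical axis, edgeR, 3 libraries per group), over all nuclei, in enterocyte-like nuclei and in clusters 1 and 3. Slc2a2, Lct and Si lie above 0 in each population, and Enpep runs from 0.54 over all nuclei to -1.35 in cluster 3.

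Clusters 3 and 1 were also compared within each rat. This comparison and the fit over both clusters were chosen after the data had been seen, so their p-values describe values already inspected. The ratio of cluster 3 to cluster 1 was 2.16, 0.973 and 0.840 for Enpep in CON replicates 1 to 3, against 0.470, 0.501 and 0.542 in SAP replicates 1 to 3. For Slc5a1 the CON rats had ratios of 2.19, 1.34 and 1.35 and the SAP rats 0.807, 0.795 and 1.02. No rat of one group reached the range of the other in either gene. For Dpp4 the CON rats had 3.07, 1.32 and 1.42 and the SAP rats 1.09, 1.00 and 0.993. Si gave ratios of 1.28, 0.730 and 0.745 in CON and 0.482, 0.468 and 0.653 in SAP, and Slc15a1 gave 5.50, 3.73 and 3.77 in CON and 3.54, 2.30 and 3.39 in SAP. These 5 of the 8 genes with a ratio in every library were lower in every SAP rat, beside 7.67% of 11528 genes, and the exact permutation test gave p = 0.1 for each, the smallest it allows. In SAP replicate 2, however, the cluster 3 level was near the immune and stromal level for Slc5a1, Si and Enpep, at 1.01, 0.862 and 1.10 times it. For Dpp4 and Slc15a1 it was 1.61 and 3.67 times that level. Anpep, Slc2a5 and Lct overlapped (exact permutation p = 0.3, 0.2 and 1.0).

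In the fit over both clusters with the rat as a block, the difference of the SAP effect (cluster 3 less cluster 1) was negative for 9 of 9 genes, while 53.2% of 12196 genes had a positive value. It was -1.13 ± 0.33 for Enpep, -0.88 ± 0.31 for Slc2a5, -0.85 ± 0.50 for Anpep, -0.78 ± 0.25 for Slc5a1, -0.70 ± 0.31 for Dpp4 and -0.65 ± 0.27 for Si. Adjusted p in edgeR was 0.476 for Enpep and 0.547 for Slc5a1, so none was called (0.00820% of all genes). Of the 9, 5 (Enpep, Slc5a1, Slc2a5, Si and Dpp4) had an unadjusted p under 0.05 with a negative value, beside 3.21% of all genes, and without CON replicate 1 this held for Enpep, at -0.67, while the other values were -0.15 to -0.75. DESeq2 was not run for this difference.

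**Figure D4:**
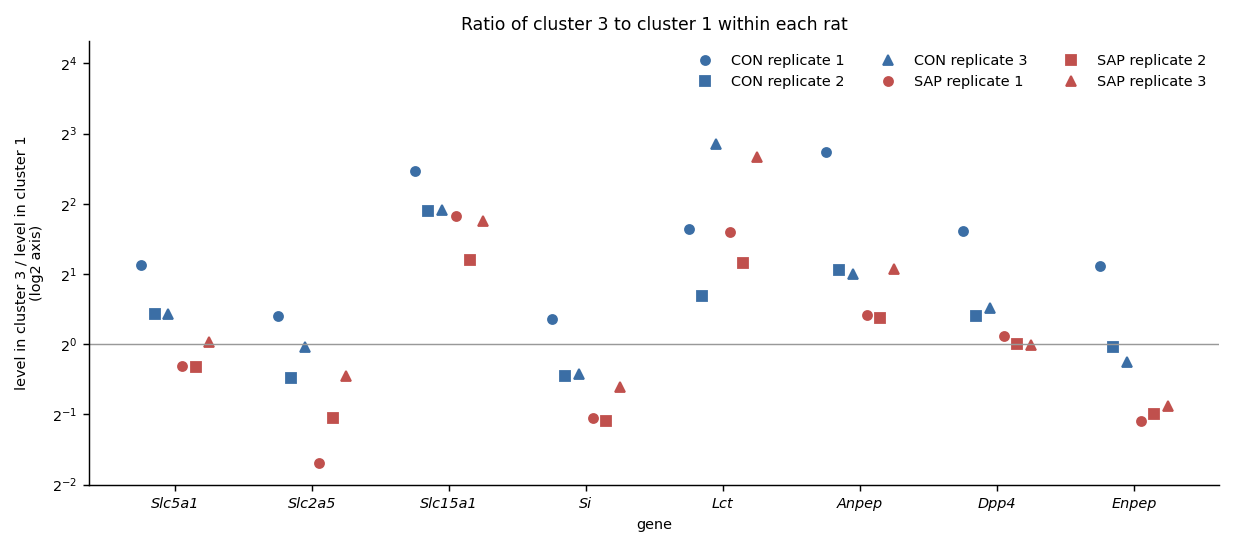
Ratio of the level in cluster 3 to the level in cluster 1 (vertical axis, log2 scale) for 8 genes in each of 6 rats, with 1 point per library. For Enpep the 3 SAP rats lie at 0.470 to 0.542 and the 3 CON rats at 0.840 to 2.16, and Slc2a2 is left out because it had no UMI in either cluster in 2 CON libraries.

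The same tests were made in 12 further classes with at least 10 nuclei in every library. Together with clusters 1, 3 and 12 they gave 105 tests of a member, of which 94 were positive (50.9% of the tests over all genes) and 0 were called in edgeR, with 28 at an unadjusted p under 0.05 (7.44% over all genes), 27 of them with SAP higher (3.96% over all genes). In the 7 immune and stromal classes, 41 of 44 values were positive and 9 had an unadjusted p under 0.05, all with SAP higher, while 52.1% of the tests over all genes there were positive and 3.34% had such a p with SAP higher. In the 5 other epithelial classes 33 of 35 were positive (50.2% over all genes), up to 4.58 for Slc2a2 in Goblet-like nuclei. CON replicate 3 was the CON library whose Si level over all nuclei lay among the SAP libraries. Without it edgeR called Si in cluster 1, in Goblet-like and in SMC-like nuclei, at log2 fold changes of 2.75, 3.71 and 3.86, the last in a smooth muscle class. The shares of all genes called in those fits are not given. Positive values of these genes thus appeared in nuclei without a brush border, none of them called in edgeR with all libraries in the fit. How far they set the values in absorptive nuclei was not tested. With the immune and stromal level of each library subtracted, the log2 ratio of the group means in enterocyte-like nuclei was 2.54 for Lct, 2.32 for Slc2a2, 0.49 for Si, -1.12 for Dpp4 and -1.56 for Enpep, and for Slc5a1 it was 0.0041. For Lct the subtracted levels were -0.508, -1.45 and 31.6 CPM in CON and 128, 7.42 and 36.6 CPM in SAP libraries. The groups overlapped, and the ratio of means for Lct rested largely on SAP replicate 1. This subtraction was added after the values had been seen.

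Other genes of brush border digestion and absorption were grouped in 5 lists. None of their tested members was called over all epithelial nuclei or in enterocyte-like nuclei by edgeR. The counts that follow stand beside 49.9% of all genes positive and 11.3% with an unadjusted p under 0.05 over epithelial nuclei, and 48.1% and 6.81% in enterocyte-like nuclei. The microvillus scaffold and ion exchange list had positive log2 fold changes in 12 of 12 genes over epithelial nuclei (median 0.94, 8 with an unadjusted p under 0.05) and in 10 of 12 in enterocyte-like nuclei (median 0.32, 0 with an unadjusted p under 0.05). In enterocyte-like nuclei its highest value was 0.68 ± 0.40 for Eps8, an actin-capping protein of microvilli, and its lowest -0.11 ± 0.42 for Vil1, which bundles actin there. The glycosidase and hexose list had 9 of 11 positive values over epithelial nuclei (median 1.26, 7 with an unadjusted p under 0.05) and 6 of 10 in enterocyte-like nuclei (median 0.64, 1 such). G6pc1, a glucose-6-phosphatase, had the highest value at 1.64 ± 0.76 and Mgam, the maltase-glucoamylase related to Si, the lowest at -0.50 ± 0.36.

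The amino acid carriers had 7 of 10 positive values over epithelial nuclei (median 0.34, 2 with an unadjusted p under 0.05 in edgeR). In enterocyte-like nuclei they differed from the peptide carrier by value. There 1 of 10 was positive (median -0.28 beside -0.02 for all genes) and 3 had an unadjusted p under 0.05 in edgeR. Slc7a8, a basolateral exchanger of neutral amino acids, was lowest at -1.27 ± 0.34, with 132, 221 and 115 CPM in CON and 73.7, 54.8 and 50.3 CPM in SAP, where the groups did not overlap (5.10% of all genes with SAP lower). Slc3a1, the heavy chain of the cystine carrier, was highest at 0.31 ± 0.41. The other peptidases had 9 of 10 positive values over epithelial nuclei (median 0.93, 2 with an unadjusted p under 0.05 in edgeR). In enterocyte-like nuclei they had 4 of 10 (median -0.14, 1 such). Mme, neprilysin, was lowest at -2.42 ± 0.51, with 143, 101 and 212 CPM in CON and 34.2, 12.8 and 38.3 CPM in SAP and no overlap, at an adjusted p of 0.707 in edgeR. Ace, the angiotensin-converting enzyme, was highest at 0.88 ± 0.67. Transcription factors of the enterocyte had 8 of 12 positive values over epithelial nuclei (median 0.19, 1 with an unadjusted p under 0.05 in edgeR). In enterocyte-like nuclei 8 of 12 were positive as well (median 0.13, 1 such). They ran there from -0.59 ± 0.46 for Ppargc1a to 0.78 ± 0.35 for Klf4, a factor of differentiated epithelium.

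Over the 23 clusters the 9 genes varied together, with Pearson correlations of log2(CPM + 1) from 0.53 to 0.95 over 36 pairs (median 0.86), and Lct was the least like the rest, at 0.53 to 0.80. The points share libraries and background, so these are descriptions. Of 9018 genes compared, those most like each member were Abhd3 and Slc30a10 for Slc5a1 (r of 0.95 and 0.94), Blmh and Nudt5 for Slc2a2 (0.93 and 0.92) and Sh3tc1 and Slc7a7 for Slc2a5 (0.94 for both). For Slc15a1 they were Stk25 and Slc6a19 (0.97 and 0.96), for Si Dab1 and Pepd (0.97 for both) and for Lct Sc5d and LOC120095958 (0.89 and 0.88). For Anpep Amn is given (0.98), for Dpp4 they were Xpnpep2 and Slc25a24 (0.96 for both) and for Enpep Tmigd1 and Xpnpep2 (0.99 and 0.98). Slc6a19 and Slc7a7 carry neutral and basic amino acids, and Pepd and Xpnpep2 are peptidases.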

How the data were processed

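Ileal nuclei from 3 CON and 3 SAP rats were profiled with a DNBelab C droplet kit, and dnbc4tools is the tool that the authors name for making the counts of UMIs. The deposited tables hold these UMI counts as whole numbers without normalization, and the submitters' processing notes name the build mRatBN7.2 and Seurat 4.3.0. The 9 genes and the lists were chosen with earlier results of these data known.

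Nuclei were kept with at least 1200 UMIs and 500 genes and at most 5% mitochondrial UMIs, the thresholds that the study states. This left 40970 nuclei, somewhat more than the study counts, and the cause of the difference was not tested. Doublets were kept. The doublet scores marked the top 5% per library (2048 nuclei), whose removal was an alternative. Counts were log-normalized, and 2000 variable genes without the 9 genes, the listed genes, mitochondrial, alpha-defensin, MHC and Reg3 genes gave 30 principal components, which were integrated over libraries by Harmony, rewritten in numpy 2.4.6, before Leiden clustering (leidenalg 0.10.2, Python 3.11.15, 20 neighbours, resolution 0.8). Names were given where a class's markers had a mean log2 ratio of 0.5 or more and a lead of 0.8 over the next class, with 3 or more of them detected.

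UMIs were summed per library and class and divided by the class total (CPM). The test was edgeR 4.0.16 (R 4.3.3, filterByExpr, TMM, robust quasi-likelihood fit) over all genes with Benjamini-Hochberg adjustment, called at an adjusted p under 0.05 and a log2 fold change of at least 0.5 in size, and checked on simulated data. The standard error was taken as the log2 fold change over the root of the F statistic. DESeq2 1.42.0 was an alternative. Classes with under 10 nuclei in a library were not tested. The 9 genes were named throughout. Of each list the genes with the highest and lowest fold change in enterocyte-like nuclei were named, with any gene called, and for each of the 9 genes the 2 genes most like it in pattern. One of these is not reported here.

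The labels give CON and SAP the same replicate numbers. Over all nuclei the deviations of same-numbered libraries from their group means correlated at 0.571, 0.181 and 0.517, so the numbers were taken to pair the libraries, a hint from the data that the labels do not explain. For replicate 2 the hint is weak. CON replicate 2 stood at 0.152 with SAP replicate 1. Over epithelial nuclei it stood at 0.048 with SAP replicate 2 and at 0.075 with SAP replicate 1. The fit with the number as a block is given with the alternatives. Promoter sequences are from RefSeq (GRCr8), and no coordinates were moved between builds. Deposited columns of other samples numbered 0.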

Additional observations from a re-analysis of the deposited data

How the results depend on the processing

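Of 704 alternative values, 659 were counted as unchanged, and 32 changed sign, all of them without a call. Fold changes were unchanged if they kept their direction and their side of the threshold, and numbers of genes called if they were equal. Levels had to move by less than their SD over the libraries. For subtracted values and the enterocyte-like share only the direction counted, so settings in which the share came to overlap are among the unchanged. The numbers of the 9 genes called over all nuclei, over epithelial nuclei and in enterocyte-like nuclei were 0 under every alternative run. In the other classes and clusters the number was 1 with DESeq2 (Lct in cluster 1, log2 fold change 3.29). It was 0 to 3 with 1 library left out (Si, without CON replicate 3, in cluster 1 at 2.75). For the latter fits the share of all genes called is not given. With the replicate block the number stayed at 0, and the pairing changed no call, while Anpep in enterocyte-like nuclei moved from -0.24 to 0.049.

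With at most 1% mitochondrial UMIs, Dpp4 was at -0.089 over all nuclei and -0.10 over epithelial nuclei. That limit left 384 nuclei in SAP replicate 1, 30 of them enterocyte-like. Slc2a5 in enterocyte-like nuclei, at 0.02, was at -0.0034 without a filter on low counts, -0.00065 with doublets removed, -0.12 with at most 1% mitochondrial UMIs, -0.31 without integration and -0.40 with the immune and stromal level subtracted. Anpep there was at 0.20 without integration and 0.077 with unnamed absorptive clusters. With 1 library left out in turn, Dpp4 ranged from -0.12 to 0.38 over all nuclei and -0.20 to 0.30 over epithelial nuclei, and Enpep from -0.12 to 0.95 and -0.13 to 0.84. In enterocyte-like nuclei the ranges were -0.044 to 0.71 for Slc5a1, -0.64 to 0.42 for Slc2a5, -0.69 to 0.34 for Anpep and -1.25 to 0.0045 for Enpep. They were -0.30 to 0.013 for Dpp4 and -0.25 to 0.37 for Enpep in cluster 1. In cluster 3 they were -0.21 to 0.54 for Slc5a1, -1.03 to 0.18 for Slc2a5 and -0.97 to 0.19 for Anpep, and for the difference of cluster 3 and cluster 1 they were -1.08 to 0.95 for Lct. The cause was not tested. DESeq2 called 215 genes over all nuclei, 301 over epithelial nuclei and 14 in enterocyte-like nuclei where edgeR called 0, and 217 in cluster 1 and 30 in cluster 3 where edgeR called 1. In enterocyte-like nuclei edgeR called 61 genes with library totals and 149 without a filter. Thinning moved the share of enterocyte-like nuclei with a UMI for all 9 genes, as given above. The fits of clusters 1 and 3, the comparison of these clusters and the subtraction were chosen after seeing the data. With 3 rats a group, SAP replicate 1 at 3189 nuclei and UMIs of these genes in every class, small differences could not be detected. Large ones could be missed as well, since over all nuclei edgeR called 0 genes at log2 fold changes of -5.27 to 6.20.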
